A study of Mus musculus with 12 samples.

Results

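Interleukin 10 (Il10) and the genes listed with it as transcriptional activators, Maf, Nfil3, Ahr and Bhlhe40, were followed across 4 populations of sorted mouse CD4 T cells. The members were named as a list because Il10 differed between these populations in an earlier look at the same arrays, so the Il10 values are given as a description, with no test. Of the 5 genes listed, 4 had a probe, with 1 probe each, and all 4 passed the filter on dim probes. The whole series measured 17759 genes with a probe, of which 12119 passed that filter and were tested. Nfil3 has no probe in the annotation used and was not analysed here.

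The groups were Blimp1-deficient pTreg (labelled Blimp1_CKO pTreg, CKO pTreg in the following), Blimp1-sufficient pTreg (Ctrl pTreg), Blimp1-deficient Teff (CKO Teff) and Blimp1-sufficient Teff (Ctrl Teff), with 3 arrays in each. All donors were C57BL/6 mice aged 8 to 12 weeks whose cells carried a Foxp3-GFP reporter, a green fluorescent protein that marks cells expressing the regulatory lineage factor Foxp3. Naive CD4 T cells with low CD44, from Blimp1-deficient and Blimp1-sufficient donors, were injected together at equal numbers into RAG1-/- hosts, which lack T and B cells of their own. After 6 to 8 weeks the donor cells were recovered from spleen, mesenteric nodes and large intestinal lamina propria, combined, and separated by an allotype marker and by Foxp3: Foxp3+ cells are the pTreg and Foxp3- cells the Teff. All 4 groups were then stimulated for 4 h with PMA and ionomycin, a pair of compounds that bypass the T cell receptor and switch on cytokine transcription. The labels name neither the promoter that drove the deletion nor the deleted part of the gene. They also do not say whether arrays of a group came from different mice or pools, and p-values therefore describe only how much these samples varied.

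Interleukin 10 is an anti-inflammatory cytokine made by regulatory T cells and by several effector lineages, and mice without it develop colitis. In mouse T cells its transcription is driven by c-MAF (Maf), by the aryl hydrocarbon receptor (Ahr), which acts with c-MAF in type 1 regulatory cells, and by NFIL3 (Nfil3), a basic leucine zipper factor of helper lineages and of the clock. Blimp1, encoded by Prdm1, acts with IRF4 on Il10 in effector regulatory T cells. Bhlhe40 encodes a basic helix-loop-helix factor that is best known in mouse T helper cells as a repressor of Il10 and as a factor for GM-CSF production, so its place among activators goes against that background.

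In the mouse assembly GRCm38.p6, the RefSeq table places Il10 at chr1:131019845-131024970, Maf at chr8:115703253-115706894, Ahr at chr12:35497979-35534989, Bhlhe40 at chr6:108660629-108666925 and Nfil3 at chr13:52967209-52982878. No source used here names the build behind the array design. Probe ILMN_1238505 reports Il10, ILMN_3100322 Maf, ILMN_2737460 Ahr and ILMN_1249378 Bhlhe40. All values are deposited log2 intensities, and levels are not set against each other between probes.

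The arrays were alike in scale, with medians from 4.66 to 4.68 and 75th percentiles from 5.84 to 5.94. Foxp3 was at 8.05 and 8.02 in CKO and Ctrl pTreg, against 4.64 and 4.58 in CKO and Ctrl Teff, on its brightest probe. A second, dimmer Foxp3 probe, ILMN_1251126, did not follow the sort in CKO, with 5.49 ± 0.32 in CKO pTreg, 6.04 ± 0.35 in Ctrl pTreg, 6.41 ± 1.15 in CKO Teff and 5.18 ± 0.50 in Ctrl Teff (SD, n = 3 each). The mean log2 signal of 5 of 6 Treg markers ran from 9.45 to 9.64 over the CKO pTreg arrays and from 10.09 to 10.61 over the Ctrl pTreg arrays, without overlap. Of these 5 markers 4 were lower in value in CKO pTreg, with a median difference of −1.13 and 0 passing in limma, and Ctla4 and Tnfrsf18 passed with arrays paired. Over all genes tested 50.3% were positive there and 2.18% passed with arrays paired. A second Tnfrsf18 probe, ILMN_2419494, differed by −1.16 and passed without pairs in a limma fit by probe (adjusted p = 0.0236). The part of this marker shift in the Il10 values was not tested. Prdm1, the targeted gene, was higher in the arrays labelled CKO in 6 of 6 same-numbered pairs: 9.04 ± 0.52 in CKO pTreg and 5.77 ± 0.50 in Ctrl pTreg, and 8.26 ± 0.64 in CKO Teff and 4.92 ± 0.41 in Ctrl Teff (SD, n = 3 each). That is the reverse of what the label would give if the probe lay in the deleted part, which is not known here. A second Prdm1 probe, ILMN_2744650, was above the array median on 0 of the 12 arrays, so it could not show a lower level. Its means were 4.46 in CKO pTreg, 4.44 in Ctrl pTreg, 4.48 in CKO Teff and 4.48 in Ctrl Teff. Every direction between genotypes below therefore rests on the labels CKO and Ctrl alone.

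Il10 was lowest in the arrays labelled CKO pTreg and was also lower in the arrays labelled CKO Teff than in Ctrl Teff. Its log2 signal was 7.17, 6.85 and 6.94 in CKO pTreg 1 to 3, against 12.53, 11.62 and 12.52 in Ctrl pTreg 1 to 3. The groups do not overlap, as was so in this direction for 6.36% of all genes tested, and the lowest Ctrl pTreg array lay 4.46 above the highest CKO pTreg array. In Teff it was 10.31, 9.81 and 8.35 in CKO Teff 1 to 3, against 12.46, 12.27 and 11.12 in Ctrl Teff 1 to 3. Here too there was no overlap (3.89% of all genes tested), with a gap of 0.81. Il10 did not sink to background in CKO pTreg: its signal stayed 2.19 to 2.49 above the median of each array.

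As group means, Il10 was 6.98 ± 0.16 in CKO pTreg, 12.22 ± 0.52 in Ctrl pTreg, 9.49 ± 1.02 in CKO Teff and 11.95 ± 0.72 in Ctrl Teff (SD, n = 3 each). The genotype difference was −5.24 ± 0.49 (SE) on the log2 scale in pTreg, a 37.8-fold lower signal, and −2.46 ± 0.49 in Teff, a 5.50-fold lower signal. In each cell type this was the most negative difference of the 12119 genes. The 3 same-numbered pairs differed by −5.36, −4.78 and −5.58 in pTreg and by −2.14, −2.46 and −2.78 in Teff, and so lay close together. Since these are bulk samples, fewer Il10-producing cells and less Il10 RNA per cell cannot be told apart.

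In order of level, Ctrl pTreg and Ctrl Teff came on top and did not differ beyond their spread, with overlapping arrays and a pTreg minus Teff difference of 0.27 ± 0.49. CKO Teff came next, below Ctrl Teff without overlap. CKO pTreg was the lowest, with its highest array 1.18 below the lowest CKO Teff array and a pTreg minus Teff difference of −2.51 ± 0.49 within CKO. The genotype difference in pTreg minus that in Teff was −2.78 ± 0.70. Il10 varied most among the CKO Teff arrays, where replicate 3 was the lowest at 8.35.

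**Figure D1:**
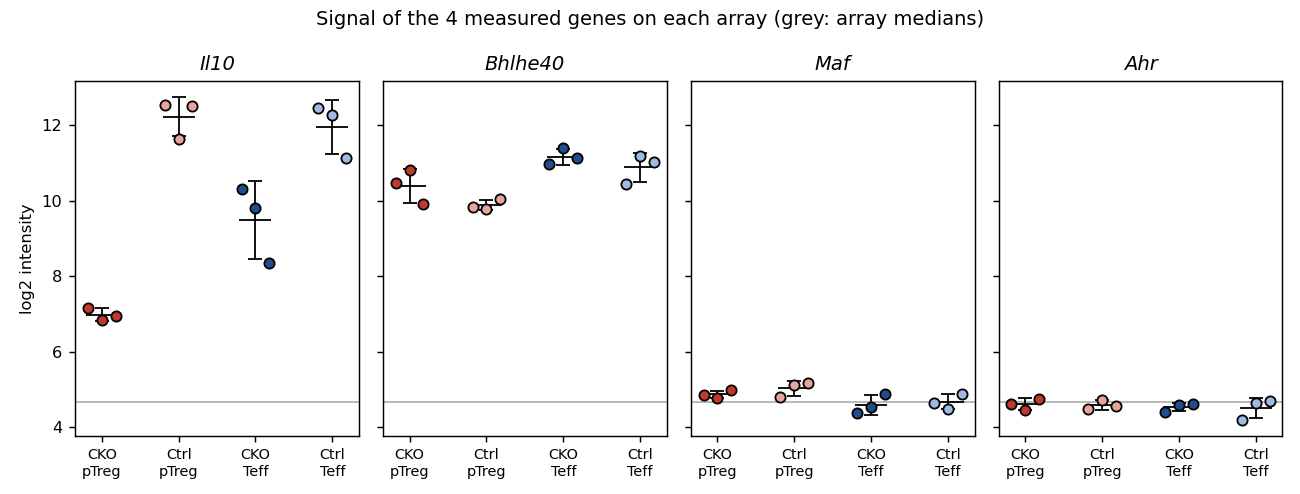
The plot gives the log2 intensity of Il10, Bhlhe40, Maf and Ahr on each of the 12 arrays, with 3 points per group, the group mean and SD as bars, and the range of array medians as a grey band. Il10 runs from 6.85 in CKO pTreg to 12.53 in Ctrl pTreg, whereas Maf and Ahr lie near the grey band on every array.

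Bhlhe40 was the only listed factor with a signal well above the array medians, and it did not follow Il10. Its log2 signal was 10.46, 10.80 and 9.92 in CKO pTreg 1 to 3, against 9.83, 9.79 and 10.05 in Ctrl pTreg 1 to 3. The groups overlap, since CKO pTreg 3 lies below Ctrl pTreg 3. The mean was 10.40 ± 0.44 in CKO pTreg and 9.89 ± 0.14 in Ctrl pTreg (SD, n = 3 each). The difference of 0.51 ± 0.24 (SE, 95% interval −0.03 to 1.04) did not pass (limma, adjusted p = 0.969, and 0.280 with same-numbered arrays paired). The pairs differed by 0.63, 1.01 and −0.12, so 2 of 3 pairs were higher in CKO, where Il10 was lower.

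In Teff, Bhlhe40 was at 10.97, 11.39 and 11.14 in CKO Teff 1 to 3, against 10.45, 11.18 and 11.02 in Ctrl Teff 1 to 3. These groups also overlap, although each pair was higher in CKO, by 0.51, 0.21 and 0.12. The mean was 11.17 ± 0.21 in CKO Teff and 10.89 ± 0.38 in Ctrl Teff (SD, n = 3 each), a difference of 0.28 ± 0.24 (SE, 95% interval −0.26 to 0.81; limma, adjusted p = 1.00).

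Between the cell types Bhlhe40 was separated more clearly than between the genotypes. All 3 pTreg arrays lay below all 3 Teff arrays in CKO as in Ctrl. A lower pTreg signal without overlap was found for 5.58% of all genes tested in CKO and 6.47% in Ctrl, so the separation alone is not rare. The pTreg minus Teff difference was −0.77 ± 0.24 in CKO (SE, 95% interval −1.30 to −0.23; limma, adjusted p = 0.240). In Ctrl it was −0.997 ± 0.242 (95% interval −1.53 to −0.46; limma, adjusted p = 0.104). Neither passed, though the difference in Ctrl did with the replicate number as a block over all groups (adjusted p = 0.0478), a number that does not pair pTreg with Teff arrays in Ctrl. The order of levels for Bhlhe40 was CKO Teff, Ctrl Teff, CKO pTreg and Ctrl pTreg, and each neighbouring pair of groups in that order overlaps, so the order by itself is not fixed by these arrays.

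Maf had a dim signal on every array, between 4.36 and 5.16, above the array median on 8 of the 12 arrays and below the 75th percentile on all of them. It was 4.85, 4.78 and 4.98 in CKO pTreg 1 to 3, against 4.79, 5.12 and 5.16 in Ctrl pTreg 1 to 3. In Teff it was 4.36, 4.54 and 4.89 in CKO Teff 1 to 3, against 4.65, 4.48 and 4.88 in Ctrl Teff 1 to 3. The genotypes overlap in each cell type. The group means were 4.87 ± 0.10 in CKO pTreg, 5.02 ± 0.20 in Ctrl pTreg, 4.60 ± 0.27 in CKO Teff and 4.67 ± 0.20 in Ctrl Teff (SD, n = 3 each).

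The genotype difference of Maf was −0.15 ± 0.17 in pTreg (SE, 95% interval −0.52 to 0.21; limma, adjusted p = 1.00). In Teff it was −0.07 ± 0.17 (95% interval −0.44 to 0.30; adjusted p = 1.00). These intervals are narrow beside the Il10 differences, but they refer to a probe that was never far above the array median. The pTreg minus Teff difference was 0.27 ± 0.17 in CKO (limma, adjusted p = 0.631) and 0.36 ± 0.17 in Ctrl (adjusted p = 0.510), and neither passed.

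Ahr, the ligand-activated receptor, was dimmer still, between 4.20 and 4.76, and lay above the array median on 3 of the 12 arrays. It was 4.61, 4.45 and 4.76 in CKO pTreg 1 to 3, against 4.49, 4.73 and 4.55 in Ctrl pTreg 1 to 3. In Teff it was 4.41, 4.58 and 4.62 in CKO Teff 1 to 3, against 4.20, 4.64 and 4.68 in Ctrl Teff 1 to 3. All 4 groups overlap. The genotype difference was 0.02 ± 0.15 in pTreg (SE, 95% interval −0.32 to 0.35; limma, adjusted p = 1.00). In Teff it was 0.03 ± 0.15 (95% interval −0.30 to 0.36; adjusted p = 1.00). The pTreg minus Teff difference was 0.07 ± 0.15 in CKO (limma, adjusted p = 0.928) and 0.08 ± 0.15 in Ctrl (adjusted p = 0.943).

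Counted together, 0 of the 3 measured factors Maf, Ahr and Bhlhe40 passed the threshold of an adjusted p under 0.05 in limma in any comparison without a block. Of all genes tested, 0.099% passed for CKO against Ctrl in pTreg and 0.0165% in Teff. An unadjusted p under 0.05 was found for 0 of 3 in pTreg, beside 5.33% of all genes, and for 0 of 3 in Teff, beside 4.17% of all genes. With same-numbered arrays paired, Bhlhe40 had an unadjusted p of 0.0317 in pTreg and 0 of 3 passed, beside 2.18% of all genes in pTreg and 0.099% in Teff. A count of 0 of 3 lies near each of these backgrounds. For pTreg against Teff, Bhlhe40 alone had an unadjusted p under 0.05, in CKO as in Ctrl, beside 10.8% of all genes in CKO and 10.4% in Ctrl. The threshold was passed by 0.355% of all genes in CKO and 1.01% in Ctrl. For the difference of the genotype differences, 0 of 3 had an unadjusted p under 0.05, beside 3.48% of all genes, and 0.0165% of all genes passed.

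**Figure D2:**
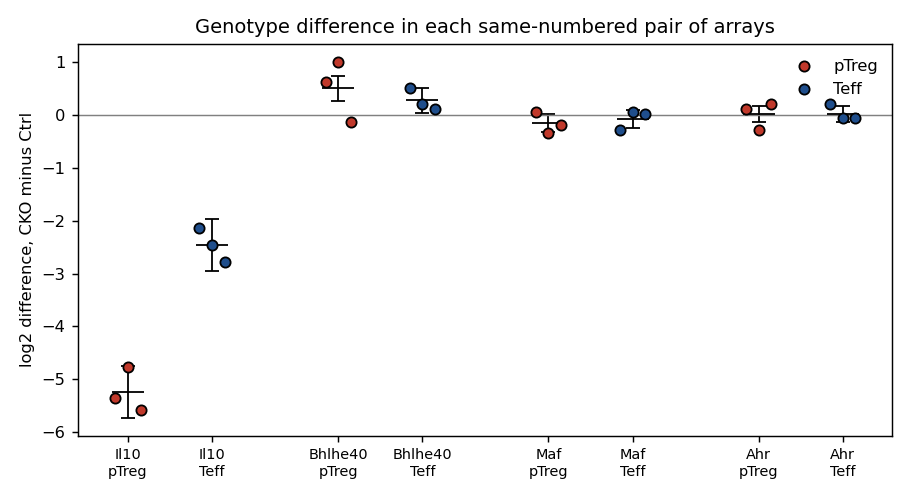
Each point is the log2 difference, CKO minus Ctrl, of 1 same-numbered pair of arrays, in pTreg and Teff, and the bars give the fitted difference with its SE. The Il10 pairs lie between −5.58 and −2.14, and those of Bhlhe40 lie between −0.12 and 1.01.

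How the factors vary with Il10 was also described over single arrays, as Pearson correlations over the 12 arrays, which share the 4 groups and are not independent. Across the 12118 other genes the central 90% of correlations with Il10 ran from −0.50 to 0.51. Maf had r = −0.07, Ahr r = −0.26 and Bhlhe40 r = −0.16, all inside that range. Within the 6 pTreg arrays r was 0.47 for Maf, −0.13 for Ahr and −0.67 for Bhlhe40. Within the 6 Teff arrays it was −0.31 for Maf, −0.38 for Ahr and −0.54 for Bhlhe40. For the dim Maf and Ahr probes, whose whole spread is under 1 on the log2 scale, a weak correlation is no finding.

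**Figure D3:**
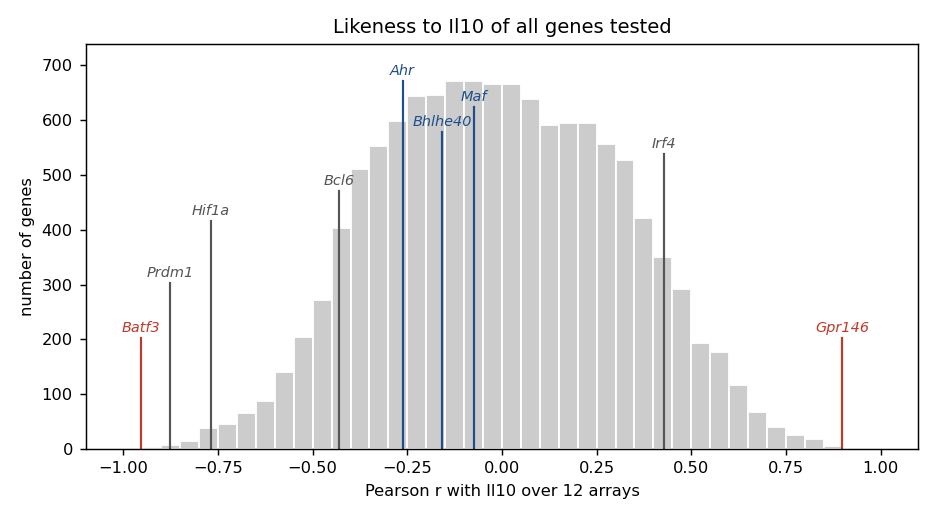
The histogram counts the genes tested by their Pearson correlation with Il10 over the 12 arrays, with vertical lines at the values of named genes (their heights carry no value). Maf, Ahr and Bhlhe40 fall in the middle, Gpr146 lies at 0.90 and Batf3 at −0.95.

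The genes most like Il10 were chosen by this correlation among those whose group means span at least 1, with clone names left out, so their levels are a description. Gpr146, an orphan receptor gene, had the highest r, 0.90, with means of 5.19 in CKO pTreg, 6.84 in Ctrl pTreg, 5.87 in CKO Teff and 6.23 in Ctrl Teff. Cyth3, which encodes a cytohesin, followed at 0.87, then Abcb9, a lysosomal peptide transporter gene, at 0.86. Sytl2, which encodes a vesicle trafficking protein, had r = 0.85 and means of 5.44 in CKO pTreg, 7.85 in Ctrl pTreg, 7.04 in CKO Teff and 7.59 in Ctrl Teff. Pde4d, a cyclic AMP phosphodiesterase gene, and Grap2, a T cell receptor adaptor gene, had r = 0.84 and 0.82. Maf and Ahr could not be among these 6, since their group means span only 0.43 and 0.096.

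Batf3, a basic leucine zipper factor gene, ran most nearly opposite to Il10, with r = −0.95. Its mean was 8.05 in CKO pTreg, 5.28 in Ctrl pTreg, 6.46 in CKO Teff and 5.45 in Ctrl Teff. The next lowest under the same rule of choice, a span of at least 1 and no clone names, were Ssx2ip at −0.91, Maged2 at −0.91 and Pafah1b3 at −0.896. Over all genes tested, no gene other than Il10 had r above 0.9 when unrounded. There 4 genes had r below −0.9, and Pafah1b3 was not among them.

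**Figure D4:**
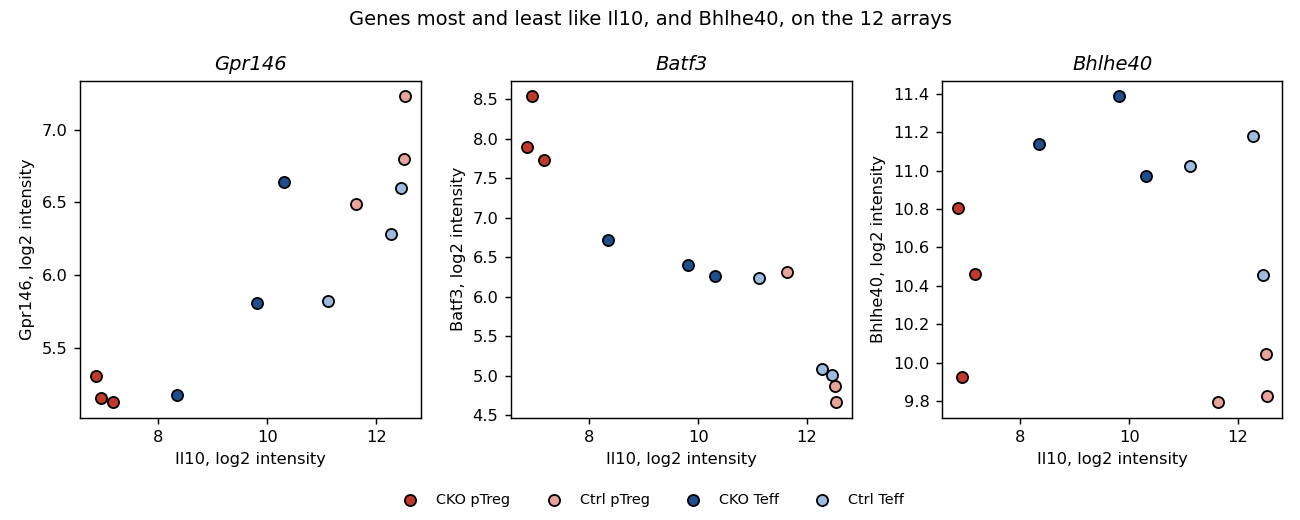
Each panel plots the log2 intensity of Gpr146, Batf3 or Bhlhe40 against that of Il10, with 1 point per array coloured by group. Batf3 has its highest mean, 8.05, in CKO pTreg, where Il10 has its lowest, 6.98.

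Beyond the listed factors, 22 other genes known to activate Il10 were tested. In pTreg 2 were higher in CKO and 0 lower, the median difference was −0.02 and 11 of 22 were positive. Of these 2, Prdm1 is the targeted gene, so its RNA cannot show whether that activator follows Il10. Among the 22, the Egr3, Nfatc2 and Ikzf3 probes were dim, with group means from 4.62 to 5.14, so they could hardly show a lower level. Over all genes tested in pTreg the median was 0.0010, 50.3% were positive, 0.0413% passed as higher and 5.33% had an unadjusted p under 0.05, which is the background for each list below. The genes that passed were Prdm1 (3.27 ± 0.38; limma, adjusted p = 0.00953, and 0.0835 without CKO pTreg 1) and Hif1a, which encodes the oxygen-sensing factor HIF-1α. Hif1a was at 8.52, 8.33 and 8.37 in CKO pTreg 1 to 3, against 7.41, 6.83 and 7.31 in Ctrl pTreg 1 to 3, so it was higher where Il10 was lower. Its difference was 1.23 ± 0.16 (SE; limma, adjusted p = 0.0164), and the call was lost without CKO pTreg 1, 2 or 3 or Ctrl pTreg 3 (adjusted p from 0.0513 to 0.123).

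In Teff 1 of the 22 was higher, again the targeted gene Prdm1 (3.34 ± 0.38; limma, adjusted p = 0.0235), and 0 were lower. The median was −0.02 with 11 of 22 positive, beside a median of −0.02 and 44.2% positive over all genes tested, of which 4.17% had an unadjusted p under 0.05. Leaving out 1 array at a time ended the Prdm1 call in Teff for 10 of the 12 arrays (adjusted p from 0.0519 to 0.161). IRF4 and BATF open chromatin together in activated T cells. Irf4 was at 11.31 ± 0.22 in CKO pTreg and 11.55 ± 0.38 in Ctrl pTreg, and at 10.93 ± 0.84 in CKO Teff and 11.50 ± 0.37 in Ctrl Teff (SD, n = 3 each). Batf was at 9.31 ± 0.32 in CKO Teff and 9.998 ± 0.329 in Ctrl Teff, a difference of −0.69 ± 0.22 that did not pass (limma, adjusted p = 1.00).

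Stat4, which relays interleukin 12, had a difference of 1.23 ± 0.30 in pTreg, which passed with arrays paired (adjusted p = 0.0130) and not otherwise (limma, adjusted p = 0.290). Its second probe differed by 1.31, and another, dim probe by 0.06. Stat4 did pass in limma between cell types in Ctrl, as lower in pTreg (8.96) than in Teff (10.82), beside 0.413% of all genes. The correlation of these 22 genes with Il10 over the 12 arrays ran from −0.88 for the targeted gene Prdm1 to 0.43 for Irf4. The median was 0.14. Within the 6 Teff arrays, r was higher for several of them, at 0.93 for Batf, 0.89 for Egr2, 0.84 for Irf4, 0.84 for Smad3 and 0.73 for Ikzf1. These 5 of 22 lay above 0.72, the value that 5% of all genes exceed there, and 2 of 22 lay below the matching low value of −0.69. Within the 6 pTreg arrays 0 of 22 lay above the matching high value of 0.77 and 3 lay below the low value of −0.76, and the median was 0.01. These 6 arrays hold 2 groups and are not independent. The targeted gene Prdm1 was among those below the low value in each cell type (r = −0.97 in pTreg and −0.81 in Teff). In Teff some other activators thus had a high positive r with Il10, where Bhlhe40 had a negative one. The dim Maf and Ahr probes cannot enter this contrast. CKO Teff 3 had the lowest Il10, Irf4, Egr2, Smad3 and Ikzf1 of the 6 Teff arrays, at 8.35, 9.98, 11.58, 8.79 and 10.45. How far these correlations rest on that array was not tested.

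Among repressors of Il10, 3 of 5 were tested (Bach2 and Hdac11 were not). In pTreg 1 of 3 was higher in CKO, Bcl6, the follicular helper factor that opposes Blimp1, and 0 were lower, beside 0.0413% of all genes that passed as higher. The median over the 3 was 0.03. Bcl6 was at 9.002, 8.95 and 8.32 in CKO pTreg 1 to 3, against 6.84, 6.75 and 7.24 in Ctrl pTreg 1 to 3. Its difference was 1.82 ± 0.25 (SE; limma, adjusted p = 0.0222), and the call was lost without CKO pTreg 1 or 2 or any Ctrl pTreg array (adjusted p from 0.0513 to 0.164). In Teff 0 of 3 passed, with Bcl6 at 9.68 ± 0.29 in CKO and 8.94 ± 0.37 in Ctrl, a difference of 0.73 ± 0.25 (limma, adjusted p = 1.00, and an unadjusted p under 0.05 for this 1 of 3). Between cell types in Ctrl, Bcl6 passed in limma as lower in pTreg (6.94) than in Teff (8.94), beside 0.413% of all genes. Mean Bcl6 was 8.94 in Ctrl Teff and 8.76 in CKO pTreg, and mean Il10 was 11.95 and 6.98 there. These groups differ in both cell type and genotype, and a link of Bcl6 with Il10 was not tested. The r of Bcl6 with Il10 was −0.94 within pTreg, −0.67 within Teff and −0.43 over the 12 arrays.

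**Figure D5:**
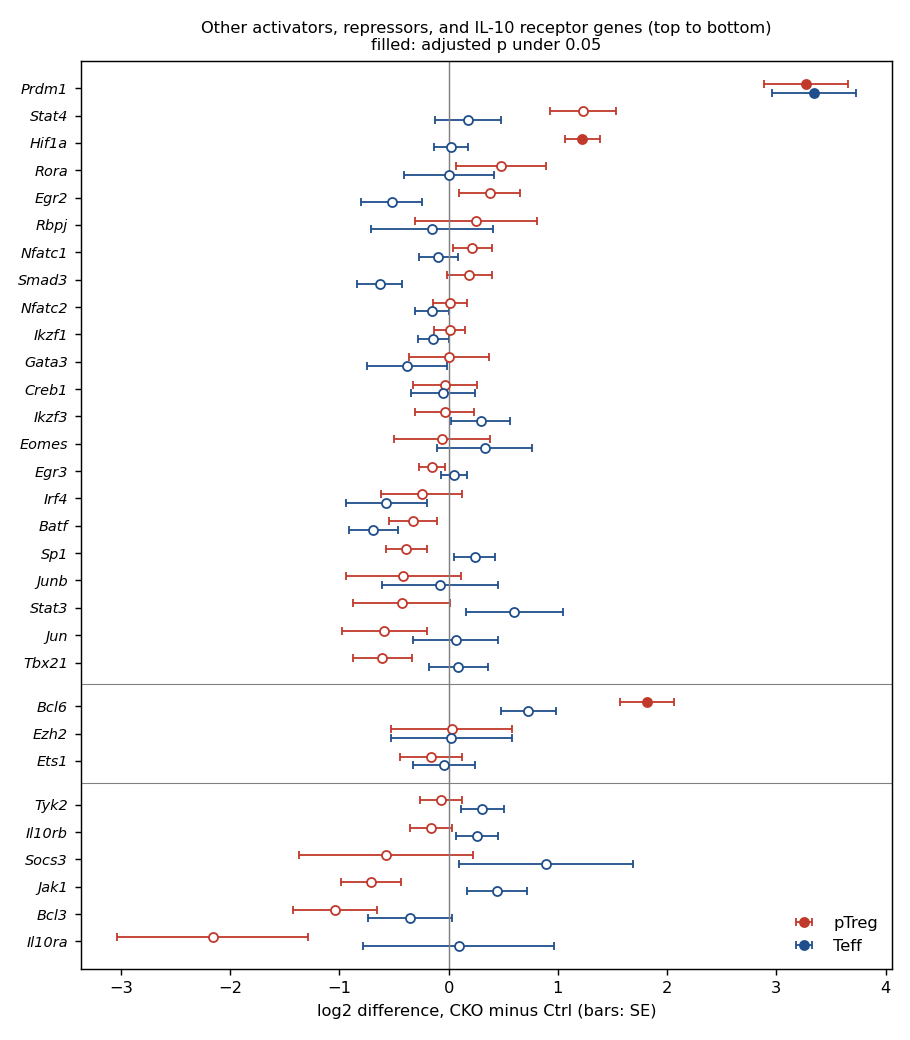
Each row is a gene of the lists of other activators, repressors and the receptor pathway of Il10, with its log2 difference, CKO minus Ctrl, and SE in pTreg and in Teff. Prdm1, Bcl6, Stat4 and Hif1a stand furthest to the right in pTreg, at 3.27, 1.82, 1.23 and 1.23, with Stat4 not passing, and Il10ra stands furthest to the left, at −2.16.

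The receptor and signalling genes of interleukin 10 were lower in value in CKO pTreg, and none passed unless arrays were paired. All 7 of 7 tested had a negative difference there, with a median of −0.57, 0 passing in limma and 3 with an unadjusted p under 0.05. Over all genes 50.3% were positive, and 5.33% reached such a p. Il10ra, the ligand-binding receptor chain, was at 5.09, 5.63 and 5.15 in CKO pTreg 1 to 3, against 7.71, 7.11 and 7.52 in Ctrl pTreg 1 to 3. The groups do not overlap, which was found in either direction for 12.3% of all genes tested. The difference was −2.16 ± 0.87 (SE; limma, adjusted p = 0.848), which passed with arrays paired (adjusted p = 0.0168).

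In Teff Il10ra was at 7.38, 8.86 and 4.81 in CKO Teff 1 to 3, against 6.65, 8.30 and 5.82 in Ctrl Teff 1 to 3, so the replicates differ more than the genotypes. Bcl3, a nuclear cofactor induced by interleukin 10 in macrophages, differed by −1.04 ± 0.39 in pTreg (limma, adjusted p = 0.733) and passed with arrays paired (adjusted p = 0.0437). Jak1, the kinase bound to the receptor, differed by −0.71 ± 0.28 (limma, adjusted p = 0.786). In Teff 6 of 7 were positive, with a median of 0.31, 0 passing in limma and 0 with an unadjusted p under 0.05.

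None of the tested neighbours of Il10 in its cytokine cluster passed. Of Il19, Il24, Fcmr and Mapkapk2 (Il20 was not tested), 0 of 4 passed in limma in pTreg or Teff, and 0 had an unadjusted p under 0.05. All 4 were negative in pTreg and 2 of 4 in Teff. The Il19, Il24 and Fcmr probes lay near the array medians in every group, with group means from 4.46 to 4.91, so they could not show a lower level. Mapkapk2, a stress kinase gene beside Il10, was at 11.48 ± 0.45 in CKO pTreg and 11.97 ± 0.07 in Ctrl pTreg, and at 12.12 ± 0.33 in CKO Teff and 12.34 ± 0.57 in Ctrl Teff (SD, n = 3 each). Its differences were −0.49 ± 0.30 and −0.23 ± 0.30, smaller in size than those of Il10 on the same log2 scale. Over the 12 arrays its r with Il10 was 0.62, above that of 98.3% of all genes tested.

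Of 15 genes for signals that induce Il10, such as interleukins 6, 21 and 27 and TGF-β, 14 were tested. In pTreg 0 passed in limma, 3 had an unadjusted p under 0.05, the median was −0.43 and 13 of 14 were negative, beside 5.33% of all genes with an unadjusted p under 0.05 and 50.3% positive. The TGF-β receptor genes Tgfbr1 and Tgfbr2 differed by −0.74 ± 0.32 (adjusted p = 0.893) and −0.51 ± 0.20 (adjusted p = 0.807), and Il6st, the shared chain of interleukin 6 family receptors, by −1.01 ± 0.41 (adjusted p = 0.848). In Teff 0 passed, 1 had an unadjusted p under 0.05, the median was −0.23 and 11 of 14 were negative. That gene was Il6, at 10.21, 8.14 and 5.27 in CKO Teff 1 to 3, against 5.09, 5.53 and 4.52 in Ctrl Teff 1 to 3. Between cell types in Ctrl, Ebi3 and Tgfbr1 passed in limma as higher in pTreg, beside 0.602% of all genes. Ebi3 was at 8.89 in Ctrl pTreg and 6.97 in Ctrl Teff, and Tgfbr1 at 10.56 and 8.86.

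Genes downstream of the listed factors were taken next. Of the partners and targets of the aryl hydrocarbon receptor, 6 of 9 were tested, and 0 passed in limma or had an unadjusted p under 0.05 in pTreg or in Teff, with medians of 0.03 and −0.05. The Ahrr, Cyp1b1, Tiparp, Nqo1 and Gpr15 probes were dim, with group means from 4.53 to 5.12, so they could hardly show a lower level. Only Arnt was brighter, with group means from 5.97 to 6.43. Of the c-MAF targets, 5 of 8 were tested and 0 passed in limma, with medians of −0.60 in pTreg and 0.91 in Teff. Unadjusted p was under 0.05 for 2 in pTreg and 1 in Teff. Ccr6, a chemokine receptor gene, was at 11.73 ± 0.57 in CKO pTreg and 9.26 ± 1.57 in Ctrl pTreg (SD, n = 3 each), a difference of 2.47 ± 0.71 (SE; limma, adjusted p = 0.450, and 0.0166 paired). Cxcr5, the follicular homing receptor gene, differed by 1.39 ± 0.56 (adjusted p = 0.848, and 0.0130 paired).

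Ctla4, the inhibitory receptor gene, was at 11.67 ± 0.29 in CKO pTreg and 12.80 ± 0.23 in Ctrl pTreg, and at 9.05 ± 1.47 in CKO Teff and 10.77 ± 0.89 in Ctrl Teff (SD, n = 3 each). It passed with arrays paired, at an adjusted p of 0.0316 in pTreg and 0.0285 in Teff, and not without pairs (limma, adjusted p = 1.00 in each). It also stands in the list of type 1 regulatory cell genes, of which 7 of 10 were tested and 0 passed in limma. That list had a median of −0.60 in pTreg, with 6 of 7 negative and 0 with an unadjusted p under 0.05, and a median of −0.23 in Teff, with 2 below 0.05. Lag3, an inhibitory receptor gene of these cells, was 1 of those 2, at 9.69 ± 0.29 in CKO Teff and 8.49 ± 0.31 in Ctrl Teff (limma, adjusted p = 0.983).

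Nfil3 and Bhlhe40 are also parts of the circadian feedback loops, and 9 of 13 clock genes and PAR leucine zipper genes were tested. In pTreg 0 passed in limma, 9 of 9 were positive with a median of 0.13, and 1 had an unadjusted p under 0.05, beside 50.3% of all genes positive and 5.33% with such a p. This was Per2, a clock repressor gene, with a difference of 0.72 ± 0.21 (adjusted p = 0.481). In Teff 6 of 9 were positive, with a median of 0.02, 0 passing and 1 with an unadjusted p under 0.05, the clock activator gene Arntl (−0.43 ± 0.19; adjusted p = 1.00). Dbp, a PAR leucine zipper gene whose promoter sites NFIL3 competes for, was higher in pTreg than in Teff, by 1.12 ± 0.17 in CKO (limma, adjusted p = 0.0272) and 0.96 ± 0.17 in Ctrl (adjusted p = 0.0278). The calls were lost without CKO pTreg 2 or 3 or CKO Teff 1 or 2 in CKO (adjusted p from 0.0688 to 0.117), and without any Ctrl pTreg array or Ctrl Teff 1 or 3 in Ctrl (adjusted p from 0.0561 to 0.140).

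Of the cytokine genes that depend on Bhlhe40 in mouse T cells, Csf2, Ifng and Il2, 0 of 3 passed in limma between genotypes and 0 had an unadjusted p under 0.05. Csf2, which encodes GM-CSF, was at 10.45 ± 0.75 in CKO pTreg and 10.73 ± 1.26 in Ctrl pTreg, and at 13.42 ± 0.74 in CKO Teff and 13.41 ± 0.56 in Ctrl Teff (SD, n = 3 each). Il2 was lower in pTreg than in Teff, by −1.51 ± 0.23 in CKO (limma, adjusted p = 0.0272) and −1.33 ± 0.23 in Ctrl (adjusted p = 0.0239). Those calls were lost without CKO pTreg 1 or 3 or CKO Teff 1 or 2 in CKO (adjusted p from 0.0957 to 0.100), and without Ctrl pTreg 1 or 2 or Ctrl Teff 1 or 2 in Ctrl (adjusted p from 0.0814 to 0.120). Ifng was at the highest value found on an array on 4 arrays, which limits what its differences can show.

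Markers of other cells moved with some of these values. The mean log2 signal of 6 of 6 mast cell and basophil markers was 8.66, 8.17 and 5.17 in CKO Teff 1 to 3, against 5.04, 5.82 and 4.86 in Ctrl Teff 1 to 3, and lay between 5.06 and 5.17 on all 6 pTreg arrays. The CKO Teff arrays with the higher marker signal, 1 and 2, are also those with the higher Il10 and Il6. Markers of NK and CD8 T cells, 6 of 6 with a probe, averaged 6.58, 7.202 and 5.83 in CKO Teff 1 to 3, against 5.67, 5.63 and 5.49 in Ctrl Teff 1 to 3, and so were also highest on CKO Teff 1 and 2. Among them the NK receptor gene Klra7 was at 8.28 ± 2.53 in CKO Teff and 4.98 ± 0.51 in Ctrl Teff (SD, n = 3 each), and Klre1 at 8.29 ± 2.06 in CKO Teff and 5.75 ± 0.60 in Ctrl Teff, with 0 of 4 tested passing in limma and 2 with an unadjusted p under 0.05. T cell markers, 5 of 7 with a probe, averaged 9.47, 9.25 and 9.68 in CKO Teff 1 to 3. In Ctrl Teff 1 to 3 they averaged 9.82, 9.84 and 10.05. In Teff 5 of 5 were negative with 0 passing and 1 with an unadjusted p under 0.05, beside 44.2% of all genes positive. In pTreg they averaged 9.71, 9.83 and 9.69 in CKO, against 10.25, 9.80 and 10.13 in Ctrl. There 4 of 5 were negative, with 0 passing and 1 with an unadjusted p under 0.05, beside 50.3% of all genes positive. The mean of 8 of 9 neutrophil markers was 9.47, 6.61 and 9.67 in CKO pTreg 1 to 3, against 10.85, 6.92 and 10.20 in Ctrl pTreg 1 to 3. In Teff it was 10.64, 11.15 and 8.03 in CKO, against 9.29, 11.85 and 6.99 in Ctrl. All 8 had a negative difference in pTreg and a positive one in Teff, as had most of the receptor and signalling genes, with 0 passing in limma. Their part in the Il10, Il10ra and Il6 values was not tested. With each array left out in turn, the Il10 difference stayed between −2.87 and −1.89 in Teff and between −5.54 and −5.09 in pTreg.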

How the data were processed

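RNA of 12 sorted samples was measured on Illumina mouse arrays. The authors deposited log2 intensities per probe, made with GenomeStudio and limma 3.30.11, per the submitters' processing notes, which give neither background correction nor normalization. The log2 scale was read from the range of the values, which were used as deposited. Raw intensities were not analysed here.

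Of 31641 probes, 28197 had 1 gene symbol, 5 several and 3439 none. A probe was kept when above its array's median on at least 3 arrays, and the kept probe with the highest mean stood for its gene. The test was limma 3.58.1 under R 4.3.3 (lmFit, then eBayes, on 12 arrays with 4 group means), two-sided, with Benjamini-Hochberg adjustment over 12119 genes and a threshold of 0.05. The pipeline was tested on simulated data for CKO against Ctrl in pTreg, with 100 changed genes at each size. It recovered 59% of log2 changes of 1 and 89% of changes of 2, with 8 false calls. All changes were planted at once, whereas 12 genes passed in the real comparison. The simulated noise was independent between arrays, unlike that of same-numbered arrays here, so these shares may not hold for the real arrays. A change near or below 1 can thus be missed.

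Replicate numbers were checked as pairs by residual correlations, which were 0.519 to 0.589 for CKO with Ctrl in pTreg and 0.348 to 0.737 in Teff. Between pTreg and Teff they were 0.0413 to 0.325 in CKO and −0.266 to 0.265 in Ctrl. Genotypes were therefore also fitted in pairs within each cell type. Where limma is named with no mention of pairs or a block, the fit was unpaired.

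Members and gene lists were chosen with earlier results of these data known. Named genes were the members, Prdm1, Foxp3, and the 6 genes most and 4 least like Il10. List genes were named when past the threshold between genotypes, or else up to 4 with the smallest p. Between cell types Bcl6, Dbp, Il2, Stat4, Ebi3, Tgfbr1, Ikzf2 and Tnfrsf18 also passed, the last 2 as Treg markers in Ctrl. Irf4, Batf, Stat4, Egr2, Smad3 and Ikzf1 were named after their values were seen. A planned motif search in promoters was not run, since the sequences given held none of a measured member. The number of arrays limits the precision.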

Additional observations from a re-analysis of the deposited data

Results flagged for a closer look

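In 8 of the 123 named and listed genes, every CKO minus Ctrl pair had 1 sign in pTreg and the opposite sign in Teff. Over all genes tested the same held for 581 of 12119 (4.79%). No member was among them. The genotype difference in pTreg minus that in Teff was −1.03 for Stat3, 0.90 for Egr2, 0.82 for Smad3, −0.63 for Sp1 and 0.41 for Tiparp. It was −1.15 for Jak1, −1.92 for Lag3 and −3.75 for Klra7, a marker of NK cells. The pattern of signs itself was not tested, and the limma interaction passed for none of the 8 (adjusted p = 1.00 for each). A second, dimmer Stat3 probe differed by 0.16 in pTreg and 0.51 in Teff, so the 2 probes disagree in pTreg. Groups of 3 arrays are too small for a check of single outlying arrays.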

How the results depend on the processing

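The Il10 differences kept their size to within 1 SD under all 22 or 23 alternatives, among them normalization, filter, probe rule, variance model, array weights and pairing. Without single arrays the Il10 difference ran from −0.14 to 0.57 for pTreg against Teff in Ctrl, so this sign is not fixed. The number of measured factors past the threshold was 0 throughout, except for pTreg against Teff in Ctrl with the replicate number as a block over all groups, where it was 1 (Bhlhe40, adjusted p = 0.0478). With the replicate block within each cell type, Bhlhe40 had an adjusted p of 0.280 in pTreg and 0.706 in Teff. Array weights turned the Ahr difference in pTreg to −0.0074. Leaving out single arrays gave Ahr differences of −0.035 to 0.096 in pTreg, −0.12 to 0.098 in Teff, −0.075 to 0.15 for pTreg against Teff in Ctrl and −0.082 to 0.14 for the interaction. Maf ran from −0.22 to 0.044 in Teff and from −0.20 to 0.066 for the interaction. The cause was not tested. The 75th percentile filter removed Maf and Ahr. Genes past the threshold for CKO against Ctrl numbered 12 in pTreg, against 264 with the replicate block within cell type, 44 with it over all groups, 34 with array weights, 25 with the compared groups alone and 5 to 19 without single arrays. In Teff they numbered 2, against 12 with the block, 1 with the stricter filter, 0 with the compared groups alone and 0 to 52 without single arrays. For pTreg against Teff in CKO there were 43, against 82 with the stricter filter, 86 with trend and robust settings, 245 with array weights, 250 with the block over all groups, 4 with the compared groups alone and 16 to 262 without single arrays. In Ctrl there were 123, against 247 with array weights, 333 with the block over all groups, 29 with the compared groups alone and 43 to 162 without single arrays. For the interaction there were 2, against 5 with the block within cell type, 4 with trend and robust settings, 1 with the block over all groups, 0 with the stricter filter and 0 to 22 without single arrays. CKO Teff 3 is the array whose absence gave 52, 262 and 22. Hif1a and Bcl6 kept their sign in pTreg throughout and lost their calls in 6 and 5 of 23 alternatives, and the calls of Dbp and Il2 between cell types were lost in 5 to 7 of 22. The Bcl6 call between cell types in Ctrl was kept in 22 of 22. The calls of Stat4, Ebi3, Tgfbr1, Ikzf2 and Tnfrsf18 between cell types were not followed under the alternatives. Dim signal limits what the Maf and Ahr probes can show.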
